A study of Zea mays with 6 samples.

Results

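The transcripts described here are the maize ES family, which encodes small secreted cysteine-rich proteins of the female gametophyte. The 3 members are the transcript models GRMZM2G009359_T01, GRMZM2G128301_T01 and GRMZM2G012012_T01, taken from 42007 models listed in any library because their deposited protein description reads female gametophyte-specific protein ES1 or ES2 precursor. The rule itself uses only the description. A search of all descriptions found 1 further model with the ES2 precursor text, GRMZM2G359064_T01, which is given beside the members. Transcripts were measured by poly(A) RNA-seq in the maize inbred line Q319, in embryo sacs taken 14 to 16 h after pollination, in unpollinated embryo sacs and in nucellus, with 2 libraries per tissue. The labels call the libraries of a tissue biological replicates and do not say whether they came from separate plants, so the p-values measure the spread between these libraries. Embryo sacs were freed by enzyme treatment of ovule slices, and the nucellus was taken from ovule slices too. The labels do not give the number of ovules behind a library, and all material was from 1 inbred line.

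In maize the embryo sac (the female gametophyte) contains an egg cell, synergids, a central cell and antipodal cells, and lies inside the nucellus, a maternal tissue of the ovule. ES proteins resemble defensins, small secreted proteins held in shape by disulphide bonds. In maize, the pollen tube grows into a synergid and bursts there to release the sperm cells, and the family member ES4 is known to trigger that burst by acting on the potassium channel KZM1 of the pollen tube.

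Gene symbols place the members within this family more closely than the deposited descriptions do. In RefSeq's list of maize genes (build Zm-B73-REFERENCE-NAM-5.0), the gene of GRMZM2G009359_T01 carries the synonym es4, although its deposited description names ES2. The gene of GRMZM2G128301_T01 carries both es2 and es3, and that of GRMZM2G012012_T01 carries es1, so these models are called es4, es2/es3 and es1 here. GRMZM2G359064 matched no entry of that table and is called by its identifier. Each of these 4 genes had 1 model listed, of 584 bases for es4, 607 for es2/es3, 786 for es1 and 284 for GRMZM2G359064_T01. Only uniquely mapped reads were counted, and these genes are close relatives, so reads that fit more than 1 of them may be lost, and each level is uncertain by that much.

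The libraries held 2518716 to 3222176 unique reads on the models tested. The tissue labels were checked with a list of 8 models of known embryo sac genes outside the 3 members, whose summed level was 2658 to 2849 CPM (read counts relative to library size, with TMM scaling) in pollinated embryo sacs, 2623 to 2680 in unpollinated embryo sacs and 19.7 to 22.02 in nucellus. A short list of 3 nucellus and ovule markers ran the other way, at 38.6 to 47.0 CPM in pollinated embryo sacs, 29.1 to 30.1 in unpollinated embryo sacs and 165 to 177 in nucellus. It held MADS16 and the bearded-ear1 models GRMZM2G160565_T01 and GRMZM2G160565_T02. No library stood against its label, but both lists were written with earlier results of these data known, so they are no independent test of the labels. In such bulk libraries, fewer cells of a type and less RNA per cell cannot be told apart.

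The ES transcripts were present in all 4 embryo sac libraries and had no read in nucellus. For es4 the pollinated libraries held 590 and 664 unique reads, the unpollinated libraries 1181 and 955, and both nucellus libraries 0. For es1 the pollinated libraries held 199 and 255 reads and the unpollinated libraries 264 and 240. For es2/es3 the pollinated libraries held 137 and 165 reads and the unpollinated libraries 168 and 141. No nucellus library had a read of these models, or of GRMZM2G359064_T01, so the embryo sac and nucellus groups did not overlap for any of them. How many of all models share this lack of overlap was not counted. A count of 0 allows up to 3 reads, which for es4 is 1.71 and 1.61 RPKM (reads per kilobase of model, relative to library size, as deposited) in the nucellus libraries, for es1 1.27 and 1.19, and for es2/es3 1.64 and 1.54. These limits, and the intervals below, cover counting error only.

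Levels per length set es4 far above its relatives. In pollinated embryo sacs es4 stood at 398 and 424 RPKM, and in unpollinated ones at 620 and 541. In pollinated embryo sacs es1 stood at 99.7 and 121 RPKM, and in unpollinated ones at 103 and 101. In pollinated embryo sacs es2/es3 stood at 88.8 and 101 RPKM, and in unpollinated ones at 84.9 and 76.9. The order es4, es1, es2/es3 held in every embryo sac library. The step from es1 to es2/es3 lay beyond the spread of libraries only in unpollinated embryo sacs (102 ± 1.42 against 80.9 ± 5.69 RPKM, SD, n = 2), while in pollinated ones the libraries of both overlapped (110 ± 15.1 against 95.1 ± 8.90). Ranked among all models of a library by RPKM, es4 held place 213 and 195 in the pollinated libraries and 101 and 113 in the unpollinated ones, and es1 held places between 900 and 1121.

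**Figure D1:**
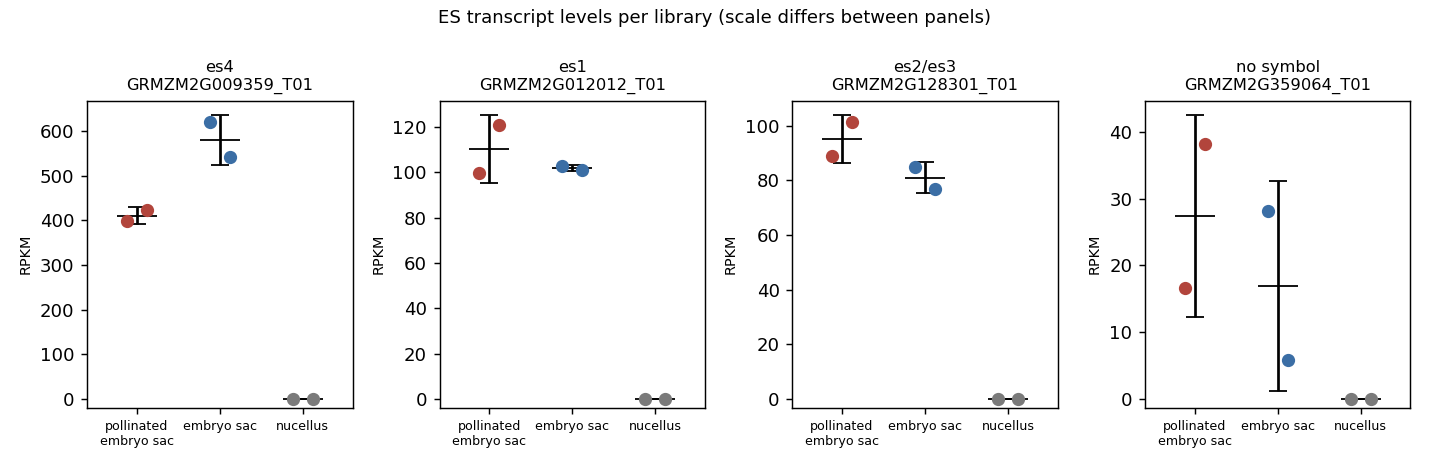
Deposited RPKM (y axis, a separate scale in each panel) of the 4 models described as ES1 or ES2 precursor in pollinated embryo sac, embryo sac and nucellus; points are libraries, bars the mean ± SD of 2. All nucellus points are at 0, and es4 stands at 398 to 620 RPKM where es1 and es2/es3 stand at 76.9 to 121.

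GRMZM2G359064_T01 was low and uneven between libraries of 1 tissue. It had 12 and 29 reads in the pollinated libraries (16.6 and 38.1 RPKM) and 26 and 5 in the unpollinated ones (28.1 and 5.83 RPKM). As RPM (reads relative to all unique reads, with no further scaling), the first unpollinated library had 7.98 (95% exact binomial interval 5.21 to 11.7) and the second 1.65 (0.537 to 3.86), and these intervals do not overlap. The groups of pollinated and unpollinated libraries did overlap.

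The first comparison, of embryo sac with nucellus, addresses how far these transcripts belong to the female gametophyte rather than to the tissue around it. All 3 members were higher in the embryo sac in edgeR's quasi-likelihood test (Benjamini-Hochberg adjusted p under 0.05 and a log2 change of at least 1), where 23.2% of the 18844 models tested were called higher and 16.3% lower. By adjusted p alone, 31.6% passed upward and 27.4% downward. With libraries scaled to total reads, 3011 models were higher and 7412 lower, against 4368 and 3065 here, and the 3 members were still called higher. The level of es4 was 392 ± 39.2 CPM in embryo sacs and 0 in nucellus (SD, n = 2), at least 586-fold higher against 3 reads per nucellus library (edgeR adjusted p = 3.06e-85). For es1 it was 92.7 ± 1.60 CPM, at least 139-fold higher (edgeR adjusted p = 2.09e-58), and for es2/es3 56.7 ± 4.18 CPM, at least 84.8-fold higher (edgeR adjusted p = 8.72e-47). GRMZM2G359064_T01 stood at 5.57 ± 5.18 CPM, a mean 8.33-fold above 3 reads per nucellus library (edgeR adjusted p = 2.44e-07). Its embryo sac libraries stood at 9.24 and 1.91 CPM, so for this model the fold is no lower bound. The family was named for its embryo sac expression, and the members were chosen with earlier results of these data known. So this comparison is no independent test of the labels.

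Pollinated embryo sacs were compared with the same nucellus libraries. All 3 members were again called higher, against 27.2% of all models tested (28.0% were lower, and by adjusted p alone 36.0% passed upward and 36.0% downward). Scaled to total reads, 3264 models were higher and 9173 lower, against 5132 and 5268 here. The bounds were at least 467-fold for es4 at 312 ± 18.1 CPM (edgeR adjusted p = 1.77e-81), at least 169-fold for es1 at 113 ± 16.9 CPM (edgeR adjusted p = 3.34e-61) and at least 112-fold for es2/es3 at 75.2 ± 7.95 CPM (edgeR adjusted p = 6.78e-51). Both comparisons share the nucellus libraries and are not independent.

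A pattern of no nucellus read and steady embryo sac reads was not particular to the ES models. With at least 100 reads in each of the 4 embryo sac libraries and none in nucellus there were 45 models, a limit chosen after the values were seen. The 3 members are among them. How many models met the limit of 100 reads whatever their nucellus reads was not counted, so the 45 do not show how rare the pattern is. The median length of the 45 was 1127 bases, against 1497 over all models listed. Of the 45, 16 were no longer than the es1 model, a share that was not counted over all models.

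Pollinated and unpollinated embryo sacs were then compared to ask whether the ES transcripts differ after pollination. None of the 3 members passed the rule of adjusted p and fold, which called 13.0% of the models tested higher and 19.3% lower. By the adjusted p alone, which 24.3% of models passed upward and 27.3% downward, es4 was lower and es2/es3 higher. For es4 the level was 312 ± 18.1 CPM in pollinated embryo sacs and 392 ± 39.2 CPM in unpollinated ones, a log2 change of -0.33 ± 0.11 (SE, edgeR adjusted p = 0.00805, 95% interval -0.54 to -0.11). For es2/es3 it was 75.2 ± 7.95 CPM in pollinated embryo sacs and 56.7 ± 4.18 CPM in unpollinated ones, a log2 change of 0.41 ± 0.17 (edgeR adjusted p = 0.0325, 95% interval 0.08 to 0.73).

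For es1 the level was 113 ± 16.9 CPM in pollinated and 92.7 ± 1.60 CPM in unpollinated embryo sacs, a log2 change of 0.29 ± 0.14 that did not pass (edgeR adjusted p = 0.0757, 95% interval 0.01 to 0.56). Without the first pollinated library es1 passed the adjusted p at a log2 change of 0.44 (edgeR adjusted p = 0.0299), and without the second it stood at 0.14. In RPKM, the pollinated and unpollinated libraries of es1 overlapped. In CPM they did not overlap for any of the 3 members, but how many of all models share this was not counted. Scaled to total reads, es1 stood at 0.11 (edgeR adjusted p = 0.522) and es4 at -0.50 (edgeR adjusted p = 4.7e-05). These intervals hold the change of each member below the 2-fold that the rule asks for, in either direction. Neither of the adjusted p-values that passed survived DESeq2's Wald test (adjusted p = 0.122 for es4 and 0.209 for es2/es3). Without the first unpollinated library es4 stood at -0.22 (edgeR adjusted p = 0.163), and without the first pollinated library at -0.26 (edgeR adjusted p = 0.11). For es2/es3 the adjusted p was 0.165 without the second unpollinated library and 0.269 without the second pollinated one, and its log2 change was 0.23 when libraries were scaled to total reads (edgeR adjusted p = 0.245).

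GRMZM2G359064_T01 had a log2 change of 0.84 ± 0.46 (edgeR adjusted p = 0.12). Its value rested on single libraries: it was 2.39 without the first unpollinated library (edgeR adjusted p = 0.00154), 0.15 without the second unpollinated library, 1.33 without the first pollinated one (edgeR adjusted p = 0.0152) and 0.12 without the second.

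The level of es4 relative to the other members was lower in each pollinated library than in each unpollinated one, a ratio that needs no scaling between libraries. The RPKM ratio of es4 to es1 was 3.99 and 3.50 in pollinated embryo sacs, and 6.02 and 5.36 in unpollinated ones. The ratio of es4 to es2/es3 was 4.48 and 4.18 in pollinated embryo sacs, and 7.31 and 7.04 in unpollinated ones. Pollinated and unpollinated libraries did not overlap in either ratio, nor in that of es2/es3 to es1 given below. How many pairs of other models share this was not counted, and the 3 ratios are built from the same 3 models, so they are not independent. On the log2 scale the ratio to es1 was lower after pollination at -0.60, and that to es2/es3 at -0.73. The exact two-sided permutation test gave p = 0.333 for each of the 3 pairs of members compared, the smallest p that this test can give with 2 libraries against 2. From the edgeR fit, the log2 changes of es4 and es1 differed by -0.61 ± 0.18, and those of es4 and es2/es3 by -0.73 ± 0.20 (SE combined from both changes). This SE treats the changes as independent. Both come from the same libraries, so it leaves out the pairing within a library.

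**Figure D2:**
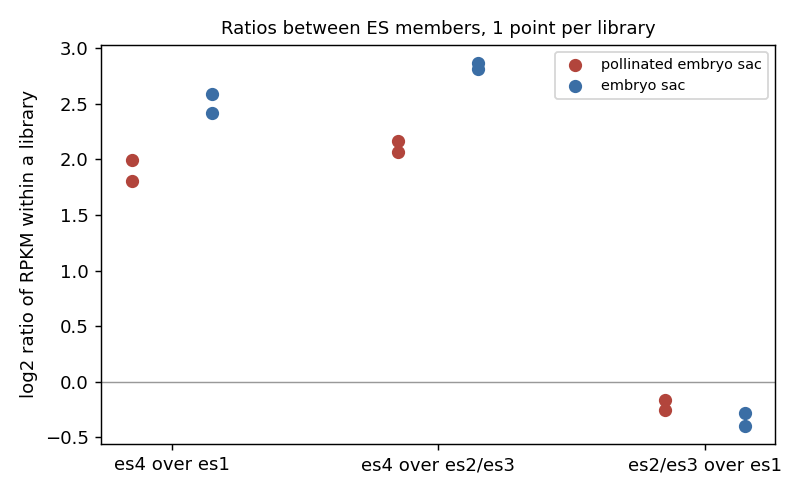
Log2 ratio of RPKM between ES members within each library (y axis) for 3 pairs of members (x axis), with 1 point per library of pollinated and unpollinated embryo sac. For both pairs with es4, the pollinated libraries lie below the unpollinated ones.

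The ratio of es2/es3 to es1 was closer to even. It was 0.891 and 0.838 in pollinated embryo sacs, and 0.824 and 0.761 in unpollinated ones, with a log2 difference of 0.13. The fitted changes of this pair differed by 0.12 ± 0.22, with the SE combined in the same way. As a share of the RPKM summed over the 4 ES models, es4 held 66.0% and 61.9% in pollinated libraries, and 74.2% and 74.7% in unpollinated ones. The sum itself was 603 and 685 RPKM in pollinated libraries, and 836 and 725 in unpollinated ones.

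Markers of other cells that could reach or stay on an isolated embryo sac were read in the same libraries. The pollen and sperm list was built from search terms, of which sperm matched no description. Some of its models were abundant in nucellus, such as SF3 (GRMZM2G004959_T01) at 38.1 ± 4.29 CPM there, so its sum does not measure pollen RNA alone. Others had reads only in pollinated libraries, such as pollen allergen Zea m 1 (GRMZM2G089699_T01) with 4 and 3. The pollen allergens did not all run this way. Phl p 11 (GRMZM2G148064_T01) had 2 reads in each pollinated library and 16 and 7 in the unpollinated ones. The 44 models of the list summed to 122 to 141 CPM in pollinated embryo sacs, 94.2 to 101 in unpollinated ones and 97.9 to 118 in nucellus. Of these models, 12 were at 0 reads in pollinated embryo sacs, 13 in unpollinated ones and 20 in nucellus. Of the 8 of these that were tested, 1 was higher and 1 lower after pollination, where 13.0% of all models tested were higher and 19.3% lower; the higher one, profilin-4 (GRMZM2G108780_T01), stood at 62.2 ± 11.1 CPM in pollinated and 25.9 ± 2.61 CPM in unpollinated embryo sacs (edgeR adjusted p = 9.6e-09), and the lower one was another model of the same gene (GRMZM2G108780_T04). The 6 exopolygalacturonase models, which mark pollen, had 5 and 10 reads in pollinated libraries, 2 in each unpollinated one, and 3 and 2 in nucellus. MADS16, 1 of the nucellus markers, stood at 42.3 ± 6.68 CPM in pollinated embryo sacs and 29.6 ± 0.70 CPM in unpollinated ones, and bearded-ear1 (GRMZM2G160565_T01), another, had 2 reads over both pollinated libraries and none in the unpollinated ones. The 3 members had no read in either nucellus library. The part of the other markers in the ES changes was not tested.

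Coverage of the models by reads differed between the members. Reads covered 93.3% of the es4 model in both pollinated libraries, and 94.4% and 84.9% in the unpollinated ones. For es1 they covered 42.4% and 42.6% in pollinated libraries, and 46.8% and 42.5% in unpollinated ones. For es2/es3 they covered 47.5% and 52.7% in pollinated libraries, and 50.7% and 47.0% in unpollinated ones. Among other models close to es1 in length and in reads in the same library (the smaller value at least 80% of the larger, 85 to 95 models), the median coverage was 77.4% to 84.5%, and 6 to 14 of them had less than es1. For es2/es3 the like medians were 81.1% to 84.7% (47 to 62 models), with 6 to 9 models lower. The deposited RPKM divides by the whole model, and per covered base the es4 to es1 ratio was 1.81 and 1.60 in pollinated libraries and 2.99 and 2.68 in unpollinated ones. So es4 was still the highest of the 3 and the shift after pollination had the same sign, but the gap was smaller. The part of read mapping in this coverage was not tested.

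**Figure D3:**
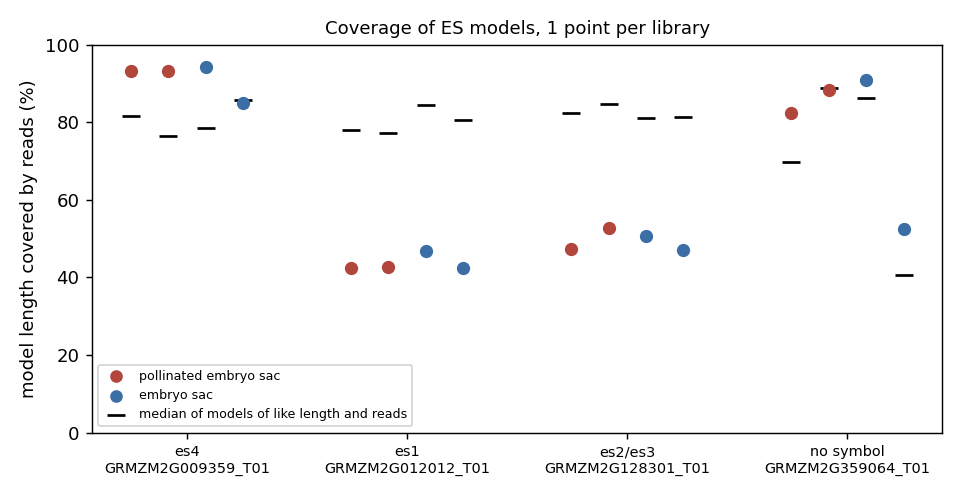
Share of each ES model covered by reads (y axis, percent of model length) in the 4 embryo sac libraries, with a dash for the median of other models of like length and read number in that library. The es1 and es2/es3 points lie between 42.4% and 52.7%, below the dashes, and es4 lies between 84.9% and 94.4%.

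The 3 genes lie on the same chromosome in the reference gene table, with es4 and es2/es3 next to each other and no annotated gene between them. Between es2/es3 and es1 the table has 25 annotated genes, 13 of them protein-coding. Of the genes in and beside this stretch, 11 others had models listed here. The highest of their 21 models in embryo sac, GRMZM2G011520_T01, stood at 30.5 RPKM in pollinated embryo sacs, 30.5 in unpollinated ones and 19.1 in nucellus. Next to es4, each model of GRMZM2G009163 had at most 6 reads per tissue. Beside es2/es3, the most abundant model of GRMZM2G170843 stood at 7.42, 7.04 and 6.32 RPKM in pollinated embryo sac, embryo sac and nucellus.

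**Figure D4:**
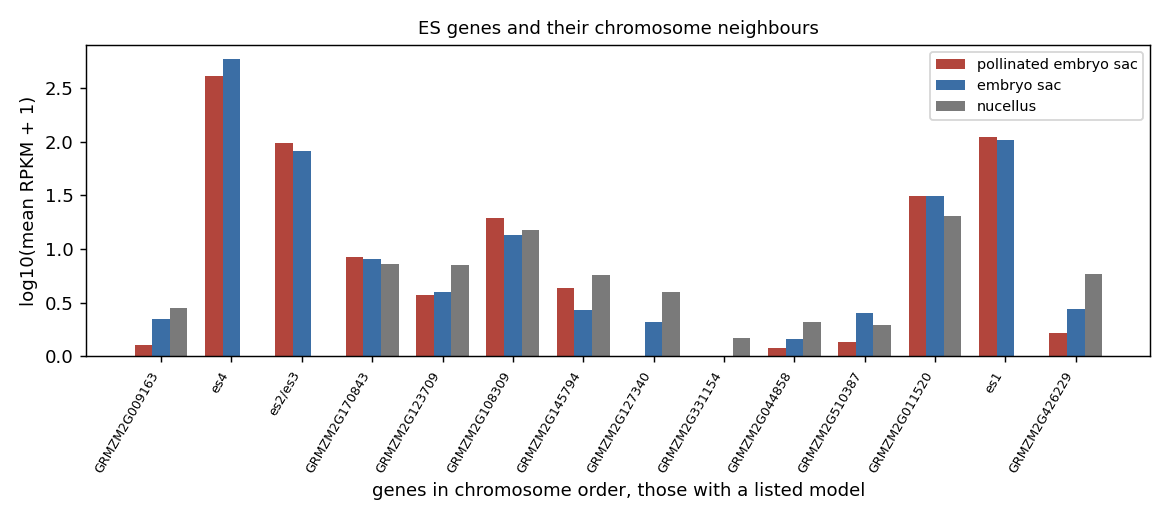
Mean RPKM of each gene's highest model as log10(RPKM + 1) (y axis) in pollinated embryo sac, embryo sac and nucellus, for the ES genes and neighbouring genes with listed models in chromosome order (x axis, not to scale). The ES genes have no nucellus bar, while every neighbour shown has one, of at most 19.1 RPKM. Some of these bars lie below the 1.19 to 1.71 RPKM that 0 reads allows for the ES genes, such as GRMZM2G331154 at 0.470 RPKM with 5 reads.

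Models with the profile most like each member were found by the Euclidean distance of log2(CPM + 1) over the 6 libraries, over all models of other genes. The nearest to es4 was GRMZM5G869984_T01, which has no description, at a distance of 0.443, with 374 ± 21.5 CPM in pollinated and 397 ± 10.2 CPM in unpollinated embryo sacs and no nucellus read. The nearest to es1 was GRMZM2G128531_T01, described as blue copper protein precursor, at 0.470, with 108 ± 6.29 CPM in pollinated and 100.1 ± 12.7 CPM in unpollinated embryo sacs and 1 nucellus read. The nearest to es2/es3 was GRMZM2G062559_T01, described only as a hypothetical protein, at 0.497, with 80.2 ± 7.12 CPM in pollinated and 45.9 ± 9.41 CPM in unpollinated embryo sacs and no nucellus read. No ES model was among the 3 nearest of another. By shape alone many models were alike: 641 to 733 models had a Pearson r of at least 0.99 with a given member over these 6 libraries, which form only 3 groups, so r hardly separates them.

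Other genes of the embryo sac were read beside the members. Of the 8 other known embryo sac models (among them GRMZM2G359064_T01), 8 were called higher in embryo sac than in nucellus (23.2% of all models tested). The list was picked as known embryo sac genes, so this count is no test of it. After pollination 0 of the 8 were called higher and 1 lower, where 13.0% of all models tested were higher and 19.3% lower. These calls ask for the fold too. By adjusted p alone, which 24.3% of all models passed upward and 27.3% downward, further models of the list passed in each direction. The EBE model GRMZM2G087766_T01, named for the embryo sac and the basal endosperm layer, had a log2 change of 0.89 ± 0.11 (edgeR adjusted p = 1.78e-12). This EBE model stood at 478 ± 41.1 CPM in pollinated and 258 ± 20.6 CPM in unpollinated embryo sacs, with no nucellus read. A model with the same description, GRMZM2G129157_T01, had a log2 change of 0.15 ± 0.10 (edgeR adjusted p = 0.224). It stood at 769 ± 4.80 CPM in pollinated and 693 ± 26.2 CPM in unpollinated embryo sacs, with 58 and 65 nucellus reads. EGG APPARATUS-1 (GRMZM2G157505_T01), the name of a secreted protein that draws the pollen tube in maize, had a log2 change of 0.81 ± 0.11 (edgeR adjusted p = 2.3e-10). It had 36 and 26 reads in the nucellus libraries. Another model described as EGG APPARATUS-1, GRMZM2G456746_T01, had 0.22 ± 0.27 (edgeR adjusted p = 0.515) and no nucellus read. The model called lower was GRMZM2G167733_T01, described as ZmEBE-2, at -1.85 ± 0.44 (edgeR adjusted p = 0.000185). A more abundant model of the same gene, GRMZM2G167733_T02, had -0.39 ± 0.10 (edgeR adjusted p = 0.000734). The di-SUMO-like protein (GRMZM2G006324_T01) had -0.77 ± 0.19 (edgeR adjusted p = 0.000272). The list's median log2 change was 0.19, against -0.08 over all models tested.

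Small cysteine-rich secreted proteins outside the family had changes in both directions. Of 31 such models 11 passed the filter on low counts, and after pollination 2 of the 11 were higher and 5 lower (13.0% and 19.3% of all models tested), with a median log2 change of -0.63 against -0.08 over all models tested. LCR70 (GRMZM2G380656_T01), a low-molecular-weight cysteine-rich protein, stood at 33.2 ± 5.43 CPM in pollinated and 847 ± 197 CPM in unpollinated embryo sacs (log2 change -4.67 ± 0.15, edgeR adjusted p = 2.69e-45). MEG1 (GRMZM2G145466_T01), which like the ES models had no nucellus read, stood at 159 ± 29.1 CPM in pollinated and 804 ± 59.9 CPM in unpollinated embryo sacs (edgeR adjusted p = 3.37e-42). A RALF precursor (GRMZM2G301663_T01), of a family of secreted signalling peptides, rose by 1.06 ± 0.14 to 120 ± 6.46 CPM, against 57.4 ± 1.83 CPM in unpollinated embryo sacs (edgeR adjusted p = 7.73e-11). Whether the ES changes differ from those of this list was not tested.

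**Figure D5:**
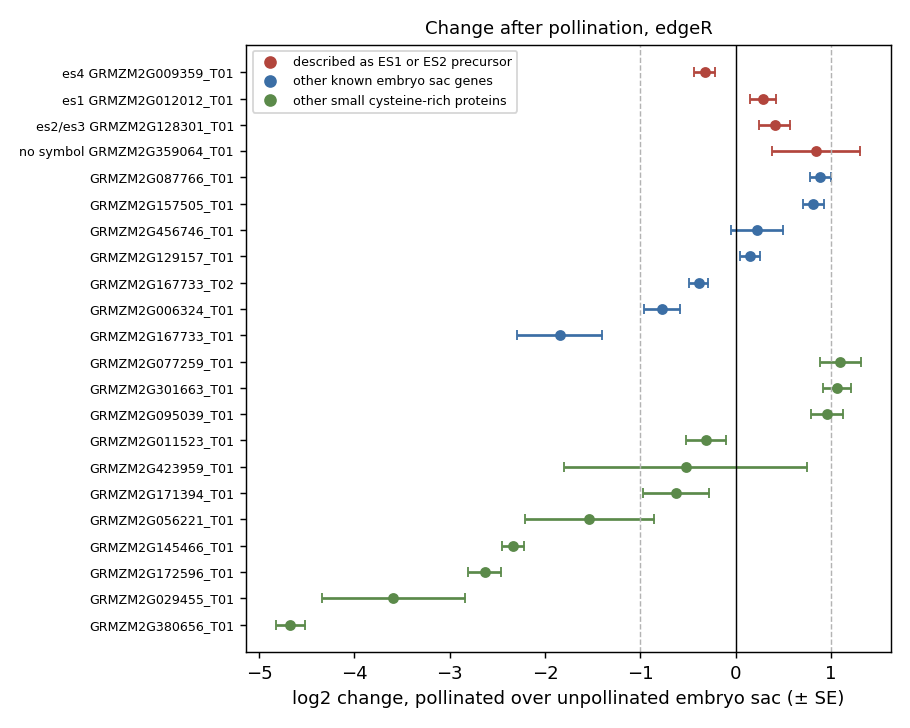
Log2 change of pollinated over unpollinated embryo sac with its SE (x axis; dashed lines at -1 and 1) for the ES models, other known embryo sac models and other small cysteine-rich proteins that were tested. The 3 members lie between -0.33 and 0.41, and the cysteine-rich models between -4.67 and 1.10.

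Potassium channels are the kind of protein on which ES4 acts in the pollen tube. The term KZM1 matched no description. The 10 channel models summed to 28.9 to 29.9 CPM in pollinated embryo sacs, 50.1 to 50.3 in unpollinated ones and 85.3 to 86.0 in nucellus. Of 4 tested, 0 were higher and 2 lower in embryo sac than in nucellus (23.2% and 16.3% of all models tested), and 1 was higher and 3 lower in pollinated embryo sac than in nucellus (27.2% and 28.0%). The higher one, GRMZM2G362470_T01, stood at 6.98 ± 0.18 CPM in pollinated embryo sacs and 2.12 ± 0.072 CPM in nucellus (edgeR adjusted p = 0.00108). Among those lower in embryo sac, ZMK2 (AC234152.1_FGT002) stood at 8.84 ± 0.44 CPM in embryo sacs and 37.9 ± 6.19 CPM in nucellus (log2 change -2.10 ± 0.24, edgeR adjusted p = 1.8e-14). After pollination 0 of the 4 were higher and 1 was lower, where 13.0% of all models tested were higher and 19.3% lower. The lower one, potassium channel5 (GRMZM2G171279_T01), stood at 4.76 ± 1.88 CPM in pollinated and 34.4 ± 0.62 CPM in unpollinated embryo sacs. Its log2 change was -2.85 ± 0.31 (edgeR adjusted p = 3.49e-15), and in nucellus it stood at 35.0 ± 7.87 CPM. GRMZM2G362470_T01, also described as potassium channel5, had a log2 change of 0.72 ± 0.47 after pollination (edgeR adjusted p = 0.196).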

How the data were processed

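For each library the authors deposited unique read counts for every transcript model with a read, beside its length, the percent of it covered by reads and its RPKM, per the file headers. The counts summed to the total in each header, models not listed were taken as 0, and RPKM recomputed from count, length and total differed from the deposited RPKM by at most 1.39e-08 of the value. Aligner, build, strand and counting tool: not given in the sources used here.

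Counts of all 6 libraries entered one edgeR 4.0.16 fit (R 4.3.3; filterByExpr, TMM, robust quasi-likelihood test, Benjamini-Hochberg adjustment over 18844 models); the procedure was tested on simulated data. Alternatives used limma 3.58.1 on log2(RPKM + 1) and DESeq2 1.42.0. CPM is on TMM-scaled library sizes. Folds against 0 reads set the mean of a tissue's libraries against 3 reads per nucellus library, and leave out the spread of that mean. Libraries of a tissue differed by more than sampling noise (chi-square per degree of freedom 1.89 to 2.13). Gene lists were search terms on the protein descriptions. Models named besides the members are the nearest by distance, those with the lowest p within a list, for each direction, and models singled out after their values were seen (chromosome neighbours, GRMZM2G087766_T01, GRMZM2G157505_T01, GRMZM2G167733_T02 after pollination, GRMZM2G006324_T01, MADS16, bearded-ear1). Also singled out in this way were GRMZM2G456746_T01, GRMZM2G129157_T01, GRMZM2G089699_T01, GRMZM2G148064_T01 and, after pollination, GRMZM2G362470_T01. The members and lists were chosen with earlier results of these data known. Of 31057 genes, 17131 matched the RefSeq gene table, 3 of the 4 ES genes among them.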

Additional observations from a re-analysis of the deposited data

How the results depend on the processing

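Against nucellus, all 3 members were called higher under each of the 14 alternatives (other scaling, filter, test, samples or feature, the replicate block, and each library left out); GRMZM2G359064_T01 was not tested with the embryo sac and nucellus libraries alone. For pollinated over unpollinated embryo sac, no sign changed and no member reached the fold rule in any of them. By adjusted p alone, 2 of 3 members passed as reported, 1 with total reads, 1 with limma, 0 with DESeq2's Wald test and 1 to 2 on leaving out 1 library. The log2 change of es4 was -0.28 with DESeq2, -0.50 with total reads and with limma, and -0.42 to -0.22 on leaving out 1 library. That of es2/es3 was 0.23 with total reads (0.234) and with limma (0.230), 0.45 with DESeq2, and 0.31 to 0.52 on leaving out 1 library. That of es1 was 0.33 with DESeq2's size factors in the edgeR test, which passed (edgeR adjusted p = 0.0374), 0.11 with total reads (edgeR adjusted p = 0.522) and with limma (adjusted p = 0.607), and 0.14 to 0.44 on leaving out 1 library. Total read scaling moved the median log2 change of all models after pollination to -0.25, against -0.08. DESeq2's Wald test called 2033 of 25718 models tested lower in embryo sac than in nucellus, where edgeR called 3065 of 18844. After pollination it called 2173 of 22461 lower, where edgeR called 3646 of 18844. Of 24492 models tested, limma called 7553 lower in embryo sac than in nucellus. In pollinated embryo sac against nucellus limma called 10609 lower, where edgeR called 5268 of 18844. Against nucellus, total read scaling moved the median of all models to -0.74 for embryo sac and -0.97 for pollinated embryo sac. The replicate block changed no call (es4 -0.33, edgeR adjusted p = 0.00764; es2/es3 0.40; es1 0.28), and same-numbered libraries did not deviate together (r from -0.02 to 0.02). The log2 difference of the es2/es3 to es1 ratio was 0.021 per covered base, an alternative chosen after seeing the data. Of the 9 nearest models, 5 were also found with a pseudocount of 0.25 and 0 by Pearson r. The causes were not tested. With 137 to 1181 reads per library the members are well above the limit of 3 reads, and GRMZM2G359064_T01, with 5 to 29, is not far from it.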

Other observations

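Secreted proteins with disulphide bonds are folded in the endoplasmic reticulum. The 61 models of a list for secretion and disulphide folding summed to 4522 to 4546 CPM in pollinated embryo sacs, 3104 to 3160 in unpollinated ones and 1814 to 1905 in nucellus. Of 28 tested, 5 were higher and 3 lower in embryo sac than in nucellus, where 23.2% of all models tested were higher and 16.3% lower. In pollinated embryo sac 13 were higher and 6 lower than in nucellus (27.2% and 28.0% of all models), and after pollination 3 were higher and 3 lower than in unpollinated embryo sac (13.0% and 19.3%). Luminal-binding protein 2 precursor (GRMZM2G114793_T01), a chaperone of the endoplasmic reticulum, stood at 459 ± 21.8 CPM in embryo sacs and 146 ± 15.9 CPM in nucellus (SD, n = 2, edgeR adjusted p = 3.39e-31). A SEC61 gamma subunit (AC208023.3_FGT001), part of the channel through which secreted proteins enter the endoplasmic reticulum, stood at 342 ± 13.8 CPM in pollinated and 136 ± 6.45 CPM in unpollinated embryo sacs (edgeR adjusted p = 4.42e-21). Protein disulfide isomerase7 precursor (GRMZM2G110742_T02), of the enzymes that form disulphide bonds, stood at 5.50 ± 1.55 CPM in pollinated and 46.4 ± 10.9 CPM in unpollinated embryo sacs (edgeR adjusted p = 3.29e-20).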
